A study of Homo sapiens with 17 samples.

Results

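Messenger RNA levels of 10 genes of the endoplasmic reticulum (ER) stress response were followed through PC3M cells, an established human prostate cancer line, under heat shock or proteasome inhibition. The genes are HSPA5, HSP90B1, CALR, HYOU1, DNAJB9, SDF2L1, PDIA4, CRELD2, MANF and HERPUD1. They were chosen by name, with earlier results of these data known. Each had a row in both expression tables, which list 14085 genes (MG132) and 13616 genes (heat shock). They were measured in 17 libraries as sequenced tags, each from near the 3' end of a transcript. The 7 groups, all PC3M, stand in 2 tables that were normalised separately. In the heat shock table, cells with an siRNA against JMJD6 (siJMJD6, n = 3) or a non-targeting siRNA (siNT, n = 3) were held at 42 °C for 1 h and recovered for 2 h, and siNT cells without heat shock formed the basal group (n = 3). In the MG132 table, cells with HSF1 knocked out (KO, n = 2), siJMJD6 cells (n = 2) and siNT cells (n = 2) received MG132 at 2.5 µM for 4 h, and siNT cells with the solvent DMSO served as control (n = 2). The siRNA transfections lasted 72 h. The KO libraries are called A and B, with no siRNA named, and whether they are separate clones is not said. No unstressed siJMJD6 or KO library was analysed here. A difference seen under stress therefore cannot be told apart from one present before it.

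The ER lumen is where secreted and membrane proteins fold, and misfolded proteins there set off the unfolded protein response. Its sensors are ATF6, IRE1 (gene ERN1) and PERK (gene EIF2AK3), which are held by the chaperone HSPA5 in resting cells, and its transcription factors ATF6, XBP1 and ATF4 raise the genes of chaperones, folding enzymes and degradation factors. Heat shock and proteasome inhibition are better known for the cytosolic response driven by HSF1. MG132 blocks the proteasome, which also takes up proteins that the ER returns to the cytosol for degradation. JMJD6 is an oxygenase that hydroxylates lysines, among others of splicing factors. Of the 10 genes, HERPUD1 encodes no chaperone but a membrane protein of the ER degradation machinery, and MANF encodes a protein that is also secreted.

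Column totals lay between 1505826 and 1819640 normalised counts, and replicates had a Pearson r across genes (log2 values) of 0.967 to 0.977 with heat shock and 0.919 to 0.953 with MG132. JMJD6 had 9.72, 7.66 and 14.6 normalised counts in siJMJD6 cells after heat shock, against 209, 210.2 and 253 in siNT cells after heat shock and 102, 105 and 104 in basal cells. In the MG132 table it had 26.6 and 16.6 in siJMJD6 cells and 80.5 and 79.4 in KO cells, against 167 and 129.8 in siNT cells with MG132. With DMSO, siNT cells had 88.7 and 70.9 for JMJD6, and both KO libraries lay between these values. The KO libraries held 285 and 175 for HSF1, against 1687 and 1884 for siNT cells with MG132. Which bases were deleted is not stated, so tags at the 3' end do not check the deletion. All 5 epithelial markers looked at reached a mean of 10 normalised counts in both tables. None of 5 blood markers did. COL1A1 of the fibroblast markers (45.1, heat shock table) and PECAM1 of the endothelial markers (11.8 with MG132, 14.5 with heat shock) passed that level. The labels do not describe replicates as separate cultures. The spread behind each p-value is that of these libraries and may be technical. Each value is relative to its library, so fewer cells making a transcript and less of it per cell cannot be told apart.

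The promoters are shown because 7 of the 10 genes hold an exact match to an element through which ATF6 and XBP1 are known to act. The windows run from 250 bases before to 50 bases after the start site in RefSeq (GRCh38.p14), and both strands were searched. The ER stress element was searched as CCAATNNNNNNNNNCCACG and its short form, ER stress element II, as ATTGGNCCACG. For HSPA5 and HERPUD1 the 250 bases before the start site are printed, and for the others the elements with 20 bases on either side, each 5' to 3' on the strand of the gene. Capitals mark the elements. HSPA5 stands at chr9:125241344-125241593 (minus strand), HERPUD1 at chr16:56931892-56932141 (plus), HSP90B1 at chr12:103930196-103930359 (plus), CALR at chr19:12938364-12938422 (plus), CRELD2 at chr22:49918534-49918592 (plus), SDF2L1 at chr22:21642094-21642144 (plus) and HYOU1 at chr11:119057254-119057410 (minus).
HSPA5: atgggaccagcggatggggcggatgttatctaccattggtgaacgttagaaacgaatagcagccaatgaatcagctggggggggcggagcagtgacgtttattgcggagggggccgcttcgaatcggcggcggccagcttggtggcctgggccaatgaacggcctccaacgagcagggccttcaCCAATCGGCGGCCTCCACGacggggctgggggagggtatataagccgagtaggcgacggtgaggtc
HERPUD1: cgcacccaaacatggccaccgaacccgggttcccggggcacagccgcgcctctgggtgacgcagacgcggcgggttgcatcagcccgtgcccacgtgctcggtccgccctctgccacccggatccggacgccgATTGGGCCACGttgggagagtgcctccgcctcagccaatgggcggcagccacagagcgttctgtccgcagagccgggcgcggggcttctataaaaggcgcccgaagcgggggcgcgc
HSP90B1: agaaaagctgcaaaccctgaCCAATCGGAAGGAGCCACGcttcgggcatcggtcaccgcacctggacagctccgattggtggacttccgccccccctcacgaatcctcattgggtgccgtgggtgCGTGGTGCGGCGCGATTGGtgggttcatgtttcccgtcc
CALR: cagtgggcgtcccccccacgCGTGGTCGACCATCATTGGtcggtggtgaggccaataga
CRELD2: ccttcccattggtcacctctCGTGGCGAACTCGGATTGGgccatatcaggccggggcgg
SDF2L1: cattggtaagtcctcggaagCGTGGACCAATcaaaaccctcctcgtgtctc
HYOU1: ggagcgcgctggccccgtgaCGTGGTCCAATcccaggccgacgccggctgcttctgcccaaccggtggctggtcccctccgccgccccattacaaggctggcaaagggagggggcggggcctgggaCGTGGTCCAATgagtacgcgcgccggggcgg

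The full element was found in HSPA5, where it begins 66 bases before the start site, in CALR (225 bases) and in CRELD2 (80 bases). HSP90B1 held it in both orientations, 194 and 89 bases before the start. The short form was found in HERPUD1 (117 bases), SDF2L1 (188 bases) and, 2 times, in HYOU1 (185 and 79 bases). Of all 35116 promoter windows, 0.0769% held the full element and 0.0541% the short form. Either was present in 0.131% of windows and in 4 of the 49 genes of the ER pathway lists below that had a window (CANX, ERO1B, PDIA6 and XBP1). The windows of MANF, DNAJB9 and PDIA4 held neither. The CCACG that ends both elements was in all 10 genes but also in 38.1% of windows. The core TGACGTGG, in 0.729% of windows, was in HYOU1, where it overlaps the short form. The HSF1 element GAANNTTCNNGAA (0.490% of windows) and the ATF4 elements TGATGCAAT (0.236%) and TGATGAAAC (0.225%) were in none of the 10. These are matches of letters, not measured binding. The 10 genes were chosen by name as genes of the ER stress response. Their share of matches is therefore not an independent result and was not tested. In GENCODE 29 (GRCh38), MANF lies at chr3:51385047-51389397 (plus strand), DNAJB9 at chr7:108569568-108574850 (plus) and PDIA4 at chr7:149003062-149028641 (minus), all protein-coding like the other 7.

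Heat shock raised 9 of the 10 genes in siNT cells and lowered none (limma on log2 of the normalised count + 1, adjusted p under 0.05 by Benjamini-Hochberg over all 9831 genes tested). The background was 2.86% of all genes tested called higher and 1.23% called lower. On that scale HERPUD1 rose 4.48-fold, HSPA5 2.69-fold, DNAJB9 2.46-fold and MANF 2.02-fold, while CRELD2 did not pass the test. In siJMJD6 cells after heat shock 8 of the 10 were lower than in heat-shocked siNT cells and none was higher, against 24.9% of all genes tested called lower and 21.4% called higher, so the background of this comparison is high in both directions. Set against basal siNT cells, the heat-shocked siJMJD6 cells had 2 of the 10 higher, 3 lower and 5 not called, with 22.2% of all genes tested called higher and 24.2% lower. All 10 passed the filter on low values, and the 3 comparisons share libraries pairwise, so they are not independent of each other.

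Of the large chaperones, HSPA5 (BiP), the HSP70 of the ER lumen and the sensors' partner, had 2281, 2181 and 2237 normalised counts in siJMJD6 cells after heat shock, against 5563, 6044 and 6022 in siNT cells after heat shock and 2185, 2298 and 2076 in basal siNT cells. All 3 heat-shocked siNT libraries stood far above the other 6, and the siJMJD6 and basal libraries overlapped. The log2 fold change, given with its standard error here and below, was 1.43 ± 0.066 for heat shock in siNT cells (adjusted p = 2.57e-18) and -1.39 ± 0.066 for siJMJD6 against siNT after heat shock (adjusted p = 1.56e-18). Heat-shocked siJMJD6 cells differed from basal siNT cells by 0.03, with a 95% interval of -0.10 to 0.17 and no call.

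HSP90B1 (GRP94), the HSP90 of the ER, had 1416, 1543 and 1516 normalised counts in siJMJD6 cells after heat shock, against 1903, 2176 and 2279 in siNT cells after heat shock and 1462, 1482 and 1325 in basal cells. Again the heat-shocked siNT libraries lay above all others, with a smaller distance. Heat shock raised HSP90B1 by a log2 fold change of 0.57 ± 0.076 (adjusted p = 1.8e-06), and siJMJD6 cells stood at -0.50 ± 0.076 relative to siNT cells after heat shock (adjusted p = 1.32e-06). CALR (calreticulin), which holds glycoproteins until they are folded and binds calcium, had 1564, 1687 and 1642 in siJMJD6 cells after heat shock, against 2633, 2779 and 2713 in siNT cells after heat shock and 2121, 2109.7 and 2011 in basal cells. Here the 3 groups separated fully, with siJMJD6 below basal. CALR rose by 0.38 ± 0.068 with heat shock (adjusted p = 0.000229), was 0.73 lower on the log2 scale in siJMJD6 than in siNT cells after heat shock (adjusted p = 5.22e-11), and in siJMJD6 cells lay at -0.35 ± 0.068 relative to basal siNT cells (adjusted p = 5.98e-05). Without a trend of variance with mean level, the heat shock call of CALR was lost (adjusted p = 0.117).

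HYOU1 (GRP170), a large HSP70 relative that exchanges nucleotide on HSPA5, had 182, 239 and 221 normalised counts in siJMJD6 cells after heat shock, against 384, 385 and 383 in siNT cells after heat shock and 263, 288 and 345 in basal cells. The 3 groups did not overlap and siJMJD6 was lowest. Its rise with heat shock was small, 0.37 ± 0.11 on the log2 scale with adjusted p = 0.0483, and this call was lost without siNT basal library 1 (0.28, adjusted p = 0.298) or 2 (0.35, 0.150), without siNT heat shock library 1 (0.37, 0.119), 2 (0.37, 0.158) or 3 (0.37, 0.0790), without siJMJD6 heat shock library 3 (0.37, 0.0594), and under each other scaling. Of 9 alternative settings other than leaving out a library, the scalings among them, 3 kept the call. The lower level in siJMJD6 cells after heat shock was firmer, at -0.85 ± 0.11 against heat-shocked siNT cells (adjusted p = 8.09e-08) and -0.48 ± 0.11 against basal siNT cells (adjusted p = 0.000528). In GENCODE 29, exons of antisense genes overlap HYOU1 (AP003392.3), CALR (AC092069.1) and HSP90B1 (C12orf73 and TTC41P), and whether the authors' counting used strand is not stated. HSP90B1 also has the processed pseudogenes HSP90B2P and HSP90B3P, between which reads could be split.

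Among the co-chaperones, DNAJB9 (ERdj4), an HSP40 that works with HSPA5, had 48.5, 30.9 and 54.9 normalised counts in siJMJD6 cells after heat shock, against 52.2, 69.5 and 59.9 in siNT cells after heat shock and 21.0, 20.02 and 32.2 in basal cells. The siJMJD6 libraries overlapped both other groups. DNAJB9 rose by 1.2995 ± 0.23 with heat shock in siNT cells (adjusted p = 0.000218) and stood 0.84 ± 0.23 above basal siNT cells in heat-shocked siJMJD6 cells (adjusted p = 0.00294), while the difference between siJMJD6 and siNT after heat shock was -0.46, with a 95% interval of -0.92 to 0.01 and no call. Exons of PNPLA8 and THAP5 overlap it on the other strand.

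SDF2L1, which forms a complex with the HSP40 protein DNAJB11 in the ER, had 425, 415 and 397 normalised counts in siJMJD6 cells after heat shock, against 888, 976 and 856 in siNT cells after heat shock and 471, 502 and 455 in basal cells. The heat-shocked siNT libraries were highest and the siJMJD6 libraries all lay below the basal ones. It rose by 0.93 ± 0.085 with heat shock (adjusted p = 5.29e-10) and was at -1.13 ± 0.085 in siJMJD6 relative to siNT cells after heat shock (adjusted p = 3.65e-13). Its position below basal, -0.21 ± 0.085, was barely called (adjusted p = 0.0469), and not called without siNT basal library 1 (-0.21, adjusted p = 0.0830) or 2 (-0.17, 0.168), without siNT heat shock library 2 (-0.21, 0.0558), or without siJMJD6 heat shock library 1 (-0.23, 0.0604), 2 (-0.21, 0.0831) or 3 (-0.18, 0.156). Of 9 alternative settings other than leaving out a library, 4 kept this call.

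The folding enzymes PDIA4 and CRELD2 parted. PDIA4 (ERp72), a protein disulfide isomerase, had 431, 512 and 532 normalised counts in siJMJD6 cells after heat shock, against 756, 789 and 922 in siNT cells after heat shock and 475, 494 and 582 in basal cells. Heat-shocked siNT libraries lay above the rest, and siJMJD6 and basal libraries overlapped. PDIA4 rose by 0.67 ± 0.10 with heat shock (adjusted p = 7.86e-06), a call lost without the variance trend (adjusted p = 0.0534), and lay at -0.74 ± 0.10 in siJMJD6 relative to siNT cells after heat shock (adjusted p = 8.22e-08). CRELD2, a secreted ER protein with disulfide isomerase-like activity, had 67.6, 79.6 and 68.6 in siJMJD6 cells after heat shock, against 81.2, 71.0 and 92.1 in siNT cells after heat shock and 70.2, 77.8 and 62.9 in basal cells, and all 3 groups overlapped. Its log2 differences were 0.21 for heat shock (95% interval -0.12 to 0.53) and -0.17 for siJMJD6 against siNT after heat shock (-0.50 to 0.15). Neither was called, and exons of ALG12 overlap CRELD2 on the other strand.

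MANF, an ER protein that binds HSPA5 and is secreted on loss of ER calcium, had 452, 508 and 487 normalised counts in siJMJD6 cells after heat shock, against 1029, 1028 and 904 in siNT cells after heat shock and 515, 430.4 and 524 in basal cells. The siJMJD6 and basal libraries covered the same range and every heat-shocked siNT library lay above them. The log2 fold changes were 1.01 ± 0.09 for heat shock (adjusted p = 2.41e-10) and -1.03 ± 0.09 for siJMJD6 against siNT after heat shock (adjusted p = 1.3e-11). HERPUD1 (HERP), a membrane protein that recruits factors to the ubiquitin ligase SYVN1 for ER-associated degradation, had 255, 269 and 232 in siJMJD6 cells after heat shock, against 866, 799 and 824 in siNT cells after heat shock and 187, 170.2 and 197 in basal cells. Its 3 groups did not overlap, with siJMJD6 close above basal. HERPUD1 rose by 2.16 ± 0.10 with heat shock (adjusted p = 1.23e-18), the largest rise of the 10. It stood at -1.72 ± 0.10 in siJMJD6 relative to siNT cells after heat shock (adjusted p = 1.69e-16) and 0.44 ± 0.10 relative to basal siNT cells (adjusted p = 0.00029).

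**Figure D1:**
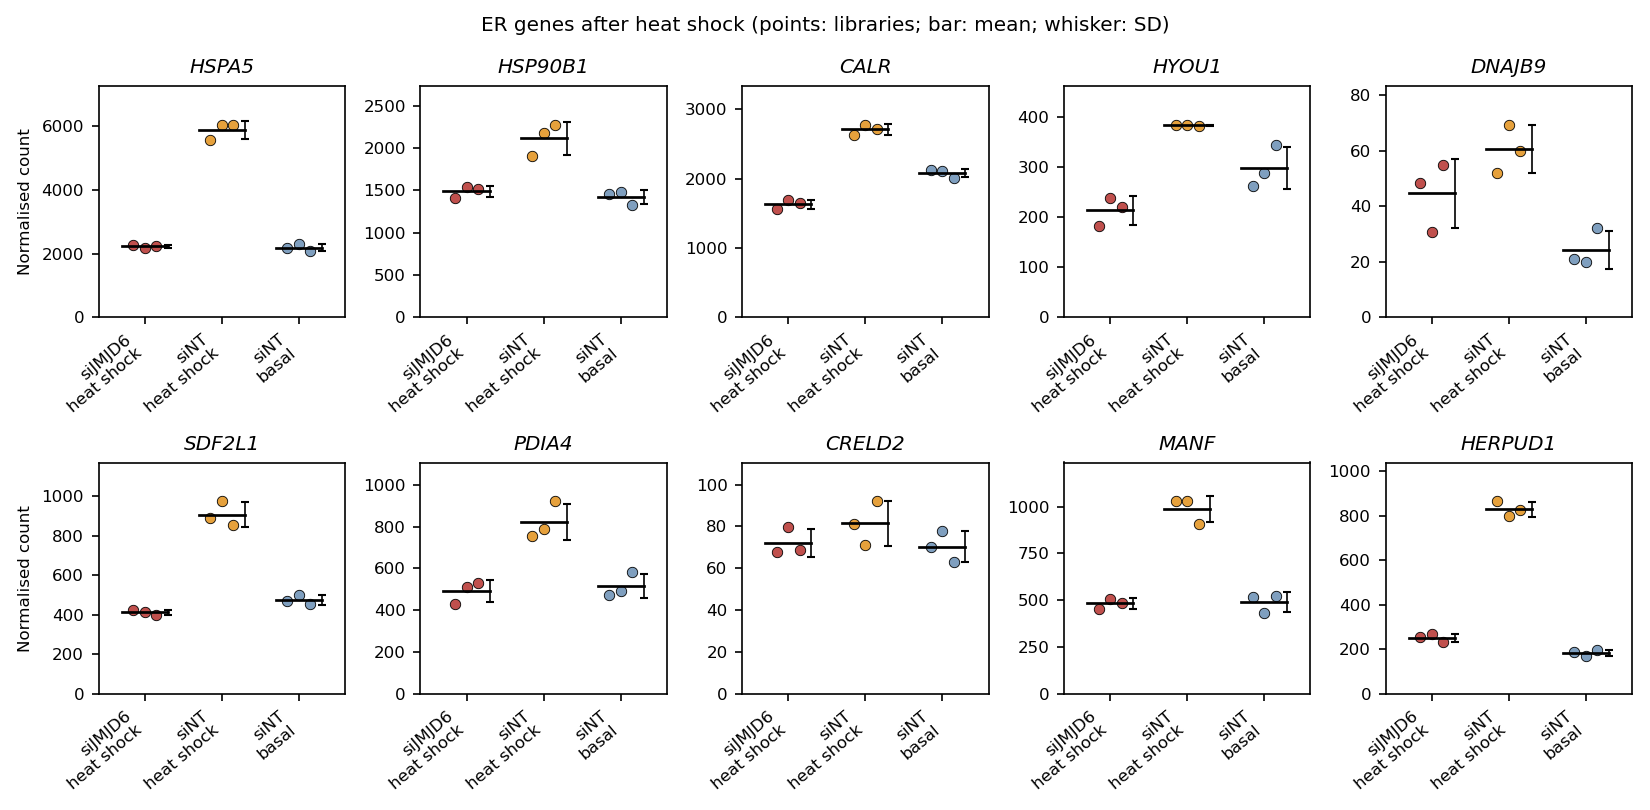
Normalised counts (vertical axis, from 0) of each of the 10 genes in the 9 libraries of the heat shock table, with siJMJD6 after heat shock, siNT after heat shock and siNT basal from left to right (points are libraries, bars means and whiskers SD, n = 3). In HSPA5, HSP90B1, PDIA4 and MANF the siJMJD6 points overlap the basal points while the heat-shocked siNT points lie above both.

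Summed over the 10 genes, their part of all normalised counts was 0.439% ± 0.0121 in siJMJD6 cells after heat shock, 0.861% ± 0.0215 in siNT cells after heat shock and 0.462% ± 0.0043 in basal siNT cells (SD, n = 3 each). The heat-shocked siNT libraries lay at 0.837% to 0.876%, and the siJMJD6 libraries, at 0.428% to 0.452%, all lay below the basal ones, at 0.458% to 0.467%. HSPA5, CALR and HSP90B1, with the highest counts, weigh most in this sum. Gene by gene, heat-shocked siJMJD6 cells had 3 of the 10 called below basal siNT cells and 2 above. The median log2 fold change of the 10 was 0.80 for heat shock in siNT cells, -0.80 for siJMJD6 against siNT after heat shock and 0.0067 for heat-shocked siJMJD6 against basal siNT cells, beside medians over all genes tested of -0.0020, -0.034 and -0.018. All heat-shocked siNT libraries exceeded all basal libraries for 9 of the 10 genes, as for 10.5% of all genes tested. All siJMJD6 libraries lay below all siNT libraries after heat shock for 8 of the 10, as for 28.8% of all genes tested. Under TMM scaling of the libraries the genes called with heat shock split into 237 higher and 188 lower, against 281 higher and 121 lower as deposited, and 8 of the 10 ER genes were then called higher. The 7 genes with an exact match to either ER stress element in the promoter window had heat shock effects from 0.21 (CRELD2) to 2.16 (HERPUD1) on the log2 scale. The 3 without such a match had 0.67 (PDIA4), 1.01 (MANF) and 1.2995 (DNAJB9), so these ranges overlapped. Inexact or more distant elements were not searched for.

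**Figure D2:**
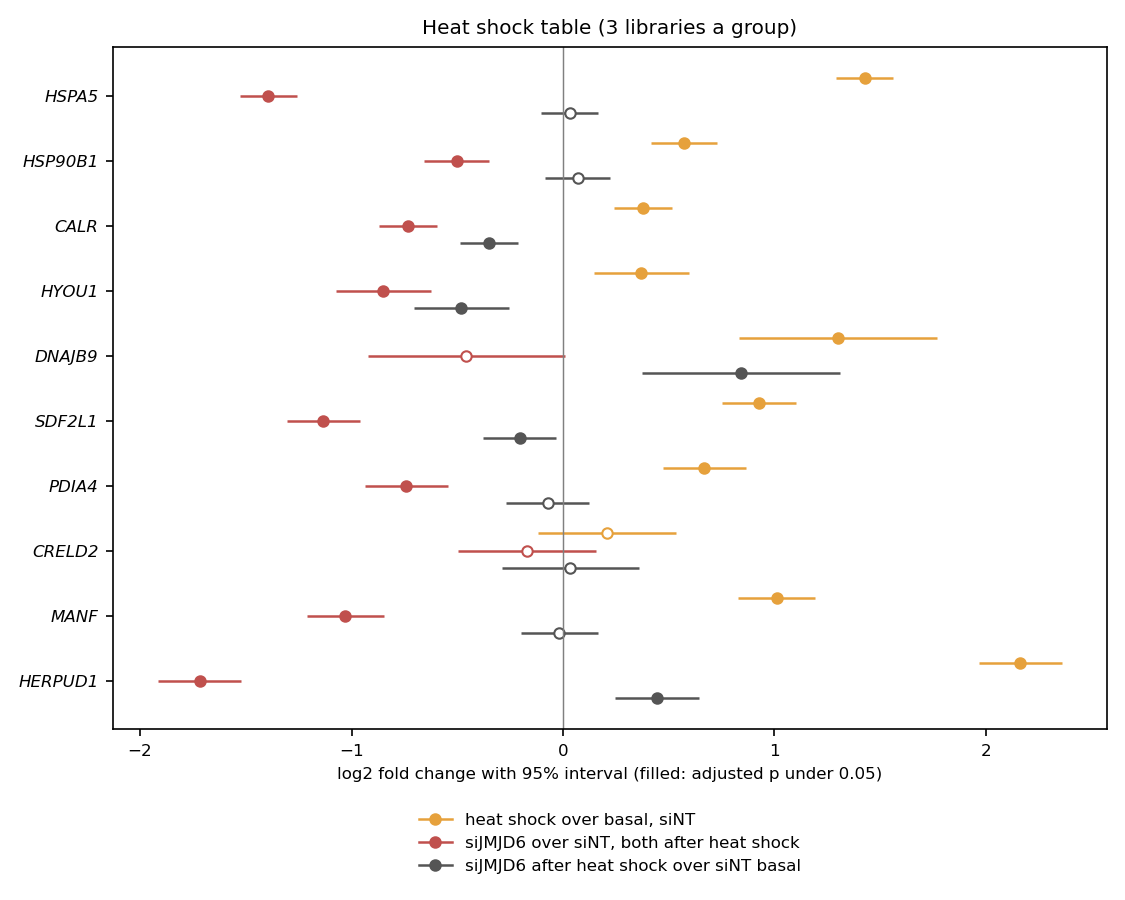
Log2 fold changes (horizontal axis) with 95% intervals of the 10 genes in the 3 comparisons of the heat shock table, 3 libraries a group. Filled points had adjusted p under 0.05: 9 for heat shock in siNT cells, 8 for siJMJD6 against siNT after heat shock and 5 for heat-shocked siJMJD6 against basal siNT cells, of which HERPUD1 and DNAJB9 lie above 0.

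Proteasome inhibition gave a narrower picture in siNT cells. After 4 h of MG132 none of the 10 genes was called in either direction by limma, against 0.205% of all 9778 genes tested called higher and 0.0614% called lower. HSPA5 and HERPUD1 had the smallest p of the 10. HSPA5 had 5191 and 3554 normalised counts in siNT cells with MG132, against 2139 and 1596 with DMSO, and HERPUD1 had 588 and 463 with MG132, against 245 and 238 with DMSO. In both genes each MG132 library lay above each DMSO library. The log2 differences were 1.22 ± 0.28 for HSPA5 (adjusted p = 0.166) and 1.11 ± 0.29 for HERPUD1 (adjusted p = 0.288). In a limma fit with a block for replicate number and without the KO libraries, HSPA5 alone of the 10 was called (adjusted p = 0.0189). That fit called 40 of all genes tested, in place of 26. The labels do not say what a replicate number marks.

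The other 8 had log2 differences between -0.22 (CRELD2) and 0.39 (CALR) with MG132, and 7 of them overlapped between MG132 and DMSO libraries. SDF2L1 was the exception, with 624 and 542 in siNT cells with MG132 and 530.0 and 385 with DMSO (log2 difference 0.36 ± 0.26, adjusted p = 0.938). Thus 3 of the 10 had every MG132 library above every DMSO library, beside 18.3% of all genes tested, and none had every one below, beside 18%. The MG132 fit is less precise than the heat shock fit, with 2 libraries a group, and the 95% interval of HSP90B1, for one, ran from -0.81 to 0.75. Absence of a call in it does not show that a gene stayed level. The median log2 difference of the 10 was 0.20 and that of all genes tested -0.0049, and the median of the 10 was 0.00092 without siNT MG132 library 1 and 0.49 without library 2.

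Under MG132, HERPUD1 fell in siJMJD6 cells and the rest of the 10 were not called, against 7.35% of all genes tested called lower and 6.22% called higher. That background of 1327 genes became 349 (161 higher, 188 lower) without siNT MG132 library 1 and 715 without library 2. HERPUD1 had 86.2 and 159.8 normalised counts in siJMJD6 cells with MG132, against 588 and 463 in siNT cells with MG132. Both siJMJD6 libraries were below every other library of the table. The log2 fold change was -2.14 ± 0.29 (adjusted p = 0.000655), and it stayed called when any 1 library was left out, at -2.58 to -1.70. HSPA5 had 2733 and 2056 in siJMJD6 cells with MG132, against 5191 and 3554 in siNT cells with MG132, without overlap. Its log2 difference of -0.86 ± 0.28 missed the threshold (adjusted p = 0.0563) and passed it without siJMJD6 library 1 (-1.06, adjusted p = 0.0402) and under quantile normalisation (-0.92, adjusted p = 0.0397). It also passed in the fit with a block for replicate number (adjusted p = 0.0152), which called 1792 of all genes tested in place of 1327.

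HYOU1 had 166 and 173 normalised counts in siJMJD6 cells with MG132, against 240.0 and 249 in siNT cells with MG132, and CRELD2 had 95.5 and 52.0 in siJMJD6 cells, against 35.04 and 35.9 in siNT cells. For either gene the groups did not overlap, with HYOU1 low and CRELD2 high in siJMJD6 cells. Over the 10 genes, siJMJD6 and siNT libraries with MG132 did not overlap for 3 that were lower and 1 that was higher in siJMJD6 cells, beside 28.1% and 24.9% of all genes tested. The log2 differences were -0.53 ± 0.24 for HYOU1 (adjusted p = 0.162) and 0.97 ± 0.38 for CRELD2 (adjusted p = 0.106). The siJMJD6 libraries lay far apart for several genes, as for HERPUD1 and CRELD2 above. HSP90B1 had 339 and 913 in siJMJD6 libraries 1 and 2, against 1094 and 723 in siNT cells with MG132. DNAJB9 had 11.8 and 57.8 in siJMJD6 cells, against 25.8 and 16.0 in siNT cells. MANF had 305 and 471 in siJMJD6 cells, against 478 and 229 in siNT cells. Library 1 was the lower one for HERPUD1, HSP90B1, DNAJB9 and MANF but the higher one for CRELD2. Without siJMJD6 library 2, HSP90B1 was called lower (-1.39, adjusted p = 0.00525) and CRELD2 higher (1.41, adjusted p = 0.0329), which makes 3 of the 10 called. Without siJMJD6 library 1, HERPUD1 and HSPA5 were called. CALR, SDF2L1 and PDIA4 overlapped between the groups, with log2 differences of -0.25, 0.17 and 0.06.

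Relative to siNT cells with DMSO, siJMJD6 cells with MG132 had HERPUD1 lower (-1.04 ± 0.29 on the log2 scale, adjusted p = 0.0329) and no other of the 10 called, against 7.18% of all genes tested called lower and 6.20% called higher. This call was lost without siNT DMSO library 1 (-1.01, adjusted p = 0.144) or 2 (-1.06, 0.122), without siJMJD6 library 1 (-0.59, 0.191), and without KO library A (-1.04, 0.0632) or B (-1.04, 0.0628), which enter only the estimate of spread. It was also lost without the filter on low values, without the variance trend, and in a fit of these 2 groups alone. Without siJMJD6 library 2, which leaves 1 siJMJD6 library, HSP90B1 stood at -1.42 in place of -0.71 and SDF2L1 at 0.85 in place of 0.53.

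In HSF1 KO cells none of the 10 genes was called against siNT cells under MG132, with 1.00% of all genes tested called lower and 0.276% called higher by limma. CRELD2 had the smallest p of the 10, with 71.4 and 67.0 normalised counts in KO cells and 35.04 and 35.9 in siNT cells with MG132, without overlap, while the DMSO libraries held 54.3 and 31.5 (log2 difference 0.94 ± 0.38, adjusted p = 0.307). HSPA5 had 3037 and 4323 in KO cells (A, then B), against 5191 and 3554 in siNT cells with MG132, with library B between the siNT libraries and A below them. Its log2 difference was -0.25 with a 95% interval of -0.84 to 0.35. HERPUD1 had 413 and 473 in KO cells, against 588 and 463 in siNT cells with MG132, a log2 difference of -0.24 with a 95% interval of -0.86 to 0.39. The cytosolic HSP70 gene HSPA1A, a textbook HSF1 target, had 181 and 229 in the same KO libraries, against 12973 and 7553 in siNT cells with MG132, far apart. The siJMJD6 libraries with MG132 held 1116.5 and 2860 for HSPA1A, also below both siNT libraries with MG132. With DMSO, siNT cells had 746 and 980, above both KO libraries. Relative to siNT cells with DMSO, the KO cells with MG132 again had none of the 10 called, against 0.368% of all genes tested called higher and 0.562% called lower. The smallest p of the 10 belonged to HSPA5 (0.97 ± 0.28, adjusted p = 0.136) and HERPUD1 (0.87 ± 0.29, adjusted p = 0.214). Both were called in a fit of these 2 groups alone (adjusted p = 0.0461 and 0.0458). In that fit 213 of all genes tested were called, in place of 91.

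Set directly against siJMJD6 cells under MG132, KO cells had HERPUD1 higher, by 1.90 ± 0.29 on the log2 scale (adjusted p = 0.00091), and no other of the 10 called. The background was 11.1% of all genes tested called higher and 9.69% called lower. Without siJMJD6 library 2, HSP90B1 was called higher as well (1.44, adjusted p = 0.00273). HSPA5 differed by 0.61 ± 0.28 (adjusted p = 0.133), with both KO libraries above both siJMJD6 libraries. KO and siJMJD6 libraries did not overlap for 4 of the 10 that were higher and 1 that was lower in KO cells, beside 32.4% and 28.7% of all genes tested. The 10 genes made up 0.438% to 0.531% of normalised counts in KO cells, 0.344% to 0.378% in siJMJD6 cells and 0.431% to 0.634% in siNT cells with MG132, against 0.323% to 0.409% with DMSO.

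**Figure D3:**
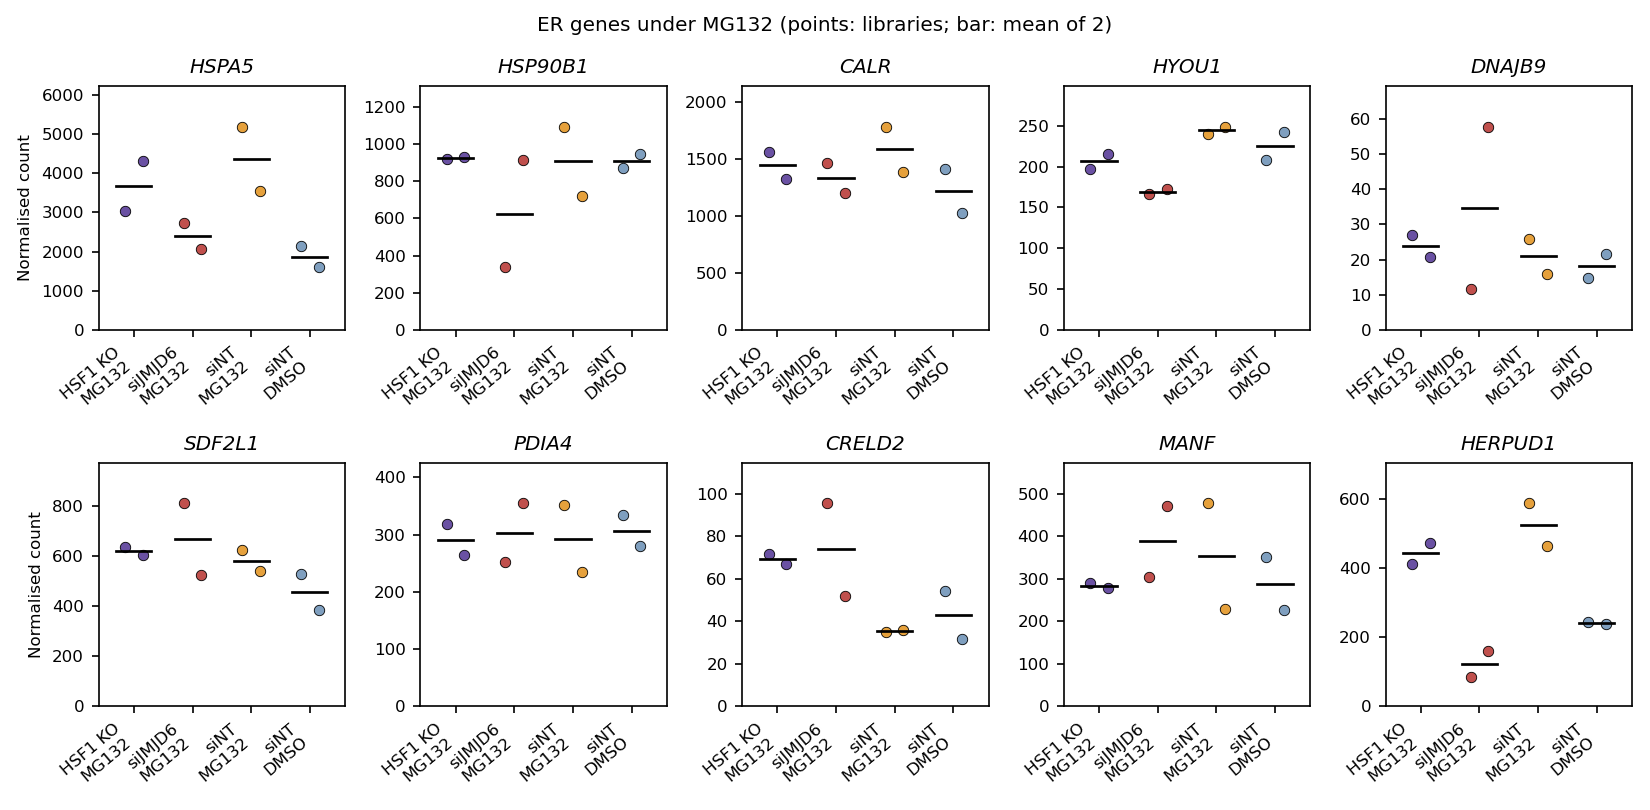
Normalised counts (vertical axis, from 0) of each of the 10 genes in the 8 libraries of the MG132 table, with HSF1 KO, siJMJD6 and siNT cells with MG132 and siNT cells with DMSO from left to right (points are libraries, bars the mean of 2). HERPUD1 is lowest in the siJMJD6 libraries, and the siJMJD6 points of HSP90B1, DNAJB9, CRELD2 and MANF lie far apart.

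**Figure D4:**
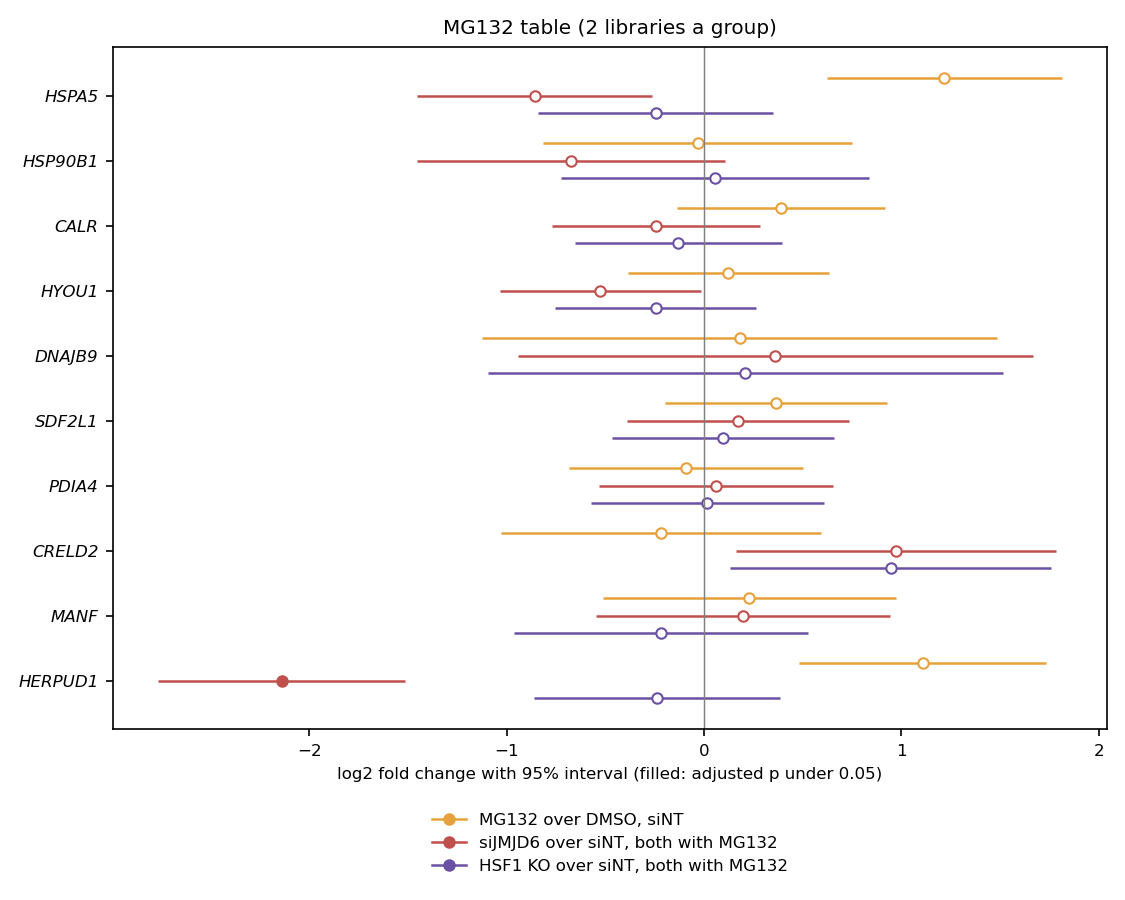
Log2 fold changes (horizontal axis) with 95% intervals of the 10 genes in 3 comparisons of the MG132 table, 2 libraries a group. The only filled point, with adjusted p under 0.05, is HERPUD1 in siJMJD6 against siNT cells, and the intervals of HSPA5 and HERPUD1 for MG132 against DMSO lie above 0 although their adjusted p did not pass.

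The tables were normalised separately, so only effects can be set side by side between them. The 2 siJMJD6 effects use different siNT libraries. HERPUD1 stood at -1.72 after heat shock and -2.14 under MG132, both called. HSPA5 stood at -1.39 (called) and -0.86 (not called). HSP90B1, HYOU1 and CALR, called lower after heat shock at -0.50, -0.85 and -0.73, had -0.67, -0.53 and -0.25 under MG132, with no call. SDF2L1, MANF and PDIA4, called lower after heat shock at -1.13, -1.03 and -0.74, had 0.17, 0.20 and 0.06 under MG132, also with no call. DNAJB9 stood at -0.46 after heat shock and 0.36 under MG132, and CRELD2 at -0.17 and 0.97, with no call in either. The MG132 values of HSP90B1, SDF2L1, MANF, PDIA4 and DNAJB9 changed sign on leaving out 1 library. No test of the difference between the experiments was made.

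Other genes of the ER pathway were counted in 4 lists with 60 genes in all, of which 53 (MG132) and 55 (heat shock) could be tested, and the 10 genes above are in none of them. Heat shock raised 8 of the 55 and lowered 1 in siNT cells, with 46 not called, beside 2.86% and 1.23% of all genes tested. In the list of sensors and factors 3 of 7 rose and 1 fell. EIF2AK3 (PERK) averaged 141 ± 11.7 normalised counts after heat shock and 63.1 ± 16.6 in basal cells (SD, n = 3 each; log2 fold change 1.18 ± 0.16, adjusted p = 1.84e-06). DDIT3 (CHOP), a factor induced through ATF4, rose by 0.90 ± 0.12 (adjusted p = 2.83e-06) and XBP1 by 0.41 ± 0.10 (adjusted p = 0.0148). ATF4 fell by 0.36 on the log2 scale (adjusted p = 0.015), while ATF6 (0.32), PPP1R15A (0.28) and TRIB3 (0.04) were not called. The call of XBP1 was lost on leaving out siNT basal library 2 (0.36, adjusted p = 0.0951) or heat-shocked siNT library 3 (0.33, 0.0901). That of ATF4 was lost on leaving out siNT basal library 1 (-0.31, 0.141) or 2 (-0.34, 0.0709), or heat-shocked siNT library 1 (-0.35, 0.0569) or 2 (-0.36, 0.0717). Tags at the 3' end do not tell the spliced from the unspliced form of XBP1. ERN1 was not analysed here. Without the variance trend neither XBP1 (adjusted p = 0.155) nor ATF4 (0.209) was called. Without siNT basal library 2, 2 of the 7 were called in place of 4.

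Of 18 other ER folding genes 4 rose with heat shock and none fell. They were DNAJB11, the HSP40 partner of SDF2L1 (0.66 ± 0.10, adjusted p = 1.4e-05), and the disulfide isomerases PDIA3 (0.51 ± 0.091, 0.000253), P4HB (0.37 ± 0.088, 0.0078) and PDIA6 (0.30 ± 0.078, 0.02). P4HB was not called without siNT basal library 1 (0.33, adjusted p = 0.0682) or heat-shocked siNT library 1 (0.33, 0.0523), nor PDIA6 without siNT basal library 2 (0.25, 0.134) or heat-shocked siNT library 2 (0.26, 0.153). Without the variance trend PDIA3 (adjusted p = 0.0540), P4HB (0.149) and PDIA6 (0.267) were not called, nor was PDIA6 under TMM scaling (0.0653). Of 16 genes of ER-associated degradation, SEL1L alone rose (0.73 ± 0.15, adjusted p = 0.00141), a partner of SYVN1, and it was not called without the variance trend (adjusted p = 0.0609). None of 14 translocation genes was called, with SSR2 (0.25, adjusted p = 0.177) and SSR1 (0.16, 0.458) at the smallest p. The medians of the 4 lists, from sensors and factors to translocation, were 0.32, 0.22, 0.21 and 0.076, beside 0.80 for the 10 ER genes and -0.0020 for all genes tested.

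In siJMJD6 against siNT cells after heat shock, 20 of the 55 were lower, 9 higher and 26 not called, beside the 24.9% and 21.4% of all genes. Of the sensors and factors 5 of 7 were lower. TRIB3, a target of ATF4, averaged 69.6 ± 10.6 normalised counts in siJMJD6 cells and 255 ± 43.7 in siNT cells after heat shock (SD, n = 3 each; -1.85 ± 0.14, adjusted p = 2.45e-13). ATF4 stood at -1.14 ± 0.092 (adjusted p = 2.07e-12), DDIT3 at -0.9998 ± 0.12 (2.54e-08), XBP1 at -0.62 ± 0.10 (9.83e-06) and ATF6 at -0.64 ± 0.19 (0.00667). PPP1R15A, a phosphatase subunit that reverses PERK signalling, was higher (0.60 ± 0.15, adjusted p = 0.00141), and EIF2AK3 was not called (-0.22). The other folding genes had 4 lower and 1 higher, with FKBP14 (-1.30 ± 0.19, adjusted p = 6.87e-07), the oxidase ERO1A (-0.71 ± 0.12, 6.36e-06) and CALU (-0.45 ± 0.10, 0.000297) foremost. PDIA6 was lower by less (-0.25 ± 0.078, adjusted p = 0.00854) and was not called without siNT heat shock library 2 (-0.22, 0.0569) or siJMJD6 heat shock library 1 (-0.21, 0.0560), nor without the variance trend (adjusted p = 0.0929). DNAJB11 and PDIA3, which rose with heat shock, were not called here (-0.12 and -0.11), and in siJMJD6 cells after heat shock both stood above basal siNT cells, by 0.54 ± 0.10 (adjusted p = 2.78e-05) and 0.40 ± 0.091 (0.000547). When siNT basal library 3 was left out, which enters only the estimate of spread, 8 genes of this list were called in place of 5.

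Degradation genes after heat shock had 7 lower and 2 higher of 16 in siJMJD6 against siNT cells. ERLIN1 (-1.56 ± 0.21, adjusted p = 1.66e-07), the mannosidase EDEM3 (-1.35 ± 0.20, 7.09e-07), SEL1L (-0.94 ± 0.15, 3.1e-06) and VCP, the ATPase that pulls proteins out of the ER membrane (-0.50 ± 0.10, 0.000125), led the list. Of 14 translocation genes 4 were lower and 5 higher, in a comparison with 24.9% of all genes tested lower and 21.4% higher. SRPRB, a subunit of the signal recognition particle receptor, averaged 484 ± 36.3 normalised counts in siJMJD6 cells and 228 ± 42.7 in siNT cells (1.09 ± 0.11, adjusted p = 3.81e-10), and SEC61A1, the channel subunit, 793 ± 41.3 and 453 ± 31.3 in the same order (0.81 ± 0.094, 9.66e-09). SPCS3 (1.14 ± 0.14, 4.74e-08) and SEC62 (0.73 ± 0.10, 2.52e-07) were higher too. The medians of the 4 lists were -0.64 for sensors and factors, -0.17 for other folding genes, -0.37 for degradation and 0.12 for translocation, beside -0.80 for the 10 ER genes and -0.034 for all genes tested.

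Against basal siNT cells, heat-shocked siJMJD6 cells had 14 of the 55 genes higher, 12 lower and 29 not called, shares near the 22.2% and 24.2% of all genes tested. ATF4 (-1.50 ± 0.092, adjusted p = 1.59e-15) and TRIB3 (-1.82 ± 0.14, 3.86e-13) were lower, while EIF2AK3 (0.97 ± 0.16, 4.92e-06) and PPP1R15A (0.87 ± 0.15, 1.24e-05) were higher. EDEM3 (-1.65), ERLIN1 (-1.41) and VCP (-0.51) of the degradation list and ERO1A (-0.92), FKBP14 (-1.32) and DNAJC10 (-0.69) of the folding list lay below basal, and OS9 (0.72), SEC61A1 (0.89), SEC62 (0.87), SRPRB (0.94) and SPCS3 (1.22) above, all with adjusted p under 0.05 and with any 1 library left out.

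**Figure D5:**
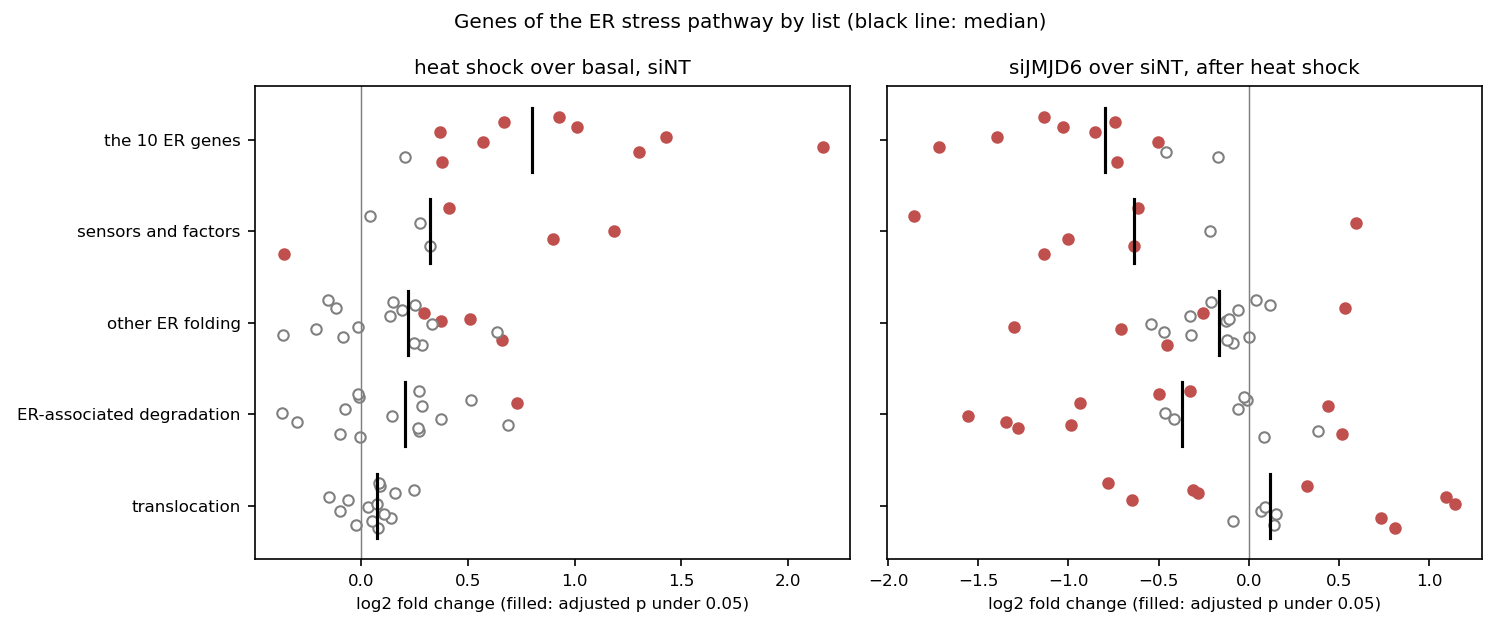
Log2 fold changes (horizontal axis) of the 10 ER genes and of the genes of 4 ER pathway lists, for heat shock over basal in siNT cells (left) and siJMJD6 over siNT after heat shock (right), with a point for each gene, filled where adjusted p was under 0.05, and black lines at medians. The median of the 10 genes is 0.80 on the left and -0.80 on the right, and the translocation genes lie on both sides of 0 on the right.

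Of the 7 sensors and factors, 2 rose with MG132 in siNT cells, beside 0.205% of all genes tested called higher. PPP1R15A averaged 258 ± 23.7 normalised counts with MG132 and 43.6 ± 11.2 with DMSO (SD, n = 2 each; 2.56 ± 0.28, adjusted p = 0.00051), and DDIT3 242 ± 29.4 and 90.5 ± 9.29 (1.41 ± 0.26, adjusted p = 0.0383). The call of DDIT3 was lost when either siNT DMSO library, either siNT MG132 library or either KO library was left out (log2 fold change 1.28 to 1.53, adjusted p from 0.140 to 0.390), and also with no filter (adjusted p = 0.219), no variance trend (0.304) or only these groups in the fit (0.0681). PPP1R15A was not called without the variance trend (adjusted p = 0.0559). ATF4 (0.76, adjusted p = 0.654), XBP1 (0.49), EIF2AK3 (0.58) and ATF6 (-0.40) were not called, and none of the 46 genes of the other 3 lists was. The smallest p there belonged to NPLOC4 (0.86, adjusted p = 0.611) and ERLIN1 (-0.96) for degradation, HSPA13 (0.84) and PDIA3 (0.60) for folding, and SPCS1 (-0.58) and SEC61G (-0.44) for translocation. In siJMJD6 against siNT cells with MG132, 5 of the 7 were lower, beside 7.35% of all genes tested. They were ATF4 (-2.17 ± 0.27, adjusted p = 0.00042), PPP1R15A (-1.65 ± 0.28, 0.00298), TRIB3 (-2.87 ± 0.53, 0.00466), DDIT3 (-1.11 ± 0.26, 0.0154) and ATF6 (-1.57 ± 0.37, 0.0162). Without siNT MG132 library 1, DDIT3 (-1.23, adjusted p = 0.0577) and ATF6 (-1.08, 0.154) were not called, and DDIT3 was not called without siNT MG132 library 2 (-0.99, 0.0853) or siJMJD6 library 1 (-0.90, 0.0626). With no filter TRIB3 (adjusted p = 0.0574) and ATF6 (0.0516) were not called, with only these groups in the fit neither ATF6 (0.0608) nor DDIT3 (0.0604) was, and without the variance trend DDIT3 was not (0.0646). The count of called sensors and factors was 3 without siNT MG132 library 1.

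SRPRB (1.05 ± 0.28, adjusted p = 0.0268) and SEC61A1 (0.92 ± 0.27, 0.0383) of the translocation list were higher in siJMJD6 than in siNT cells with MG132. No folding or degradation gene was called, with DNAJC1 (0.81, adjusted p = 0.0622), SDF2 (1.01, 0.0682), ERLIN1 (-1.02, 0.158) and OS9 (0.69, 0.186) at the smallest p. SRPRB lost its call without siNT MG132 library 1 (0.81, adjusted p = 0.194) or siJMJD6 library 2 (0.89, 0.0822), and SEC61A1 without siNT MG132 library 1 (0.83, 0.190) or 2 (1.02, 0.0882) or siJMJD6 library 1 (0.77, 0.131). Both were also lost with no filter (adjusted p = 0.0704 for SRPRB and 0.0844 for SEC61A1), no variance trend (0.0969 and 0.125) or only these groups in the fit (0.0646 and 0.0768). In HSF1 KO against siNT cells with MG132 none of the 53 genes was called by limma, beside 0.276% of all genes tested called higher and 1.00% called lower. DDIT3 came closest, with 513 ± 46.3 normalised counts in KO cells and 242 ± 29.4 in siNT cells (1.08 ± 0.26, adjusted p = 0.0676), and 1 gene of the 7 sensors and factors was called when either siJMJD6 library was left out. ATF4 (-0.04), XBP1 (0.08), EIF2AK3 (0.53) and ATF6 (0.21) were not called. TRIB3 came next (0.94, adjusted p = 0.491). In the other lists the smallest p-values belonged to DNAJB11 (0.71, adjusted p = 0.22) and SDF2 (0.75, 0.387), SSR3 (0.67, 0.191) and SSR2 (1.01, 0.198), and ERLIN1 (0.66, 0.596) and VCP (0.40, 0.598). Against siNT cells with DMSO, KO cells with MG132 had DDIT3 (2.49 ± 0.26, adjusted p = 0.00041) and PPP1R15A (2.71 ± 0.28, 0.00041) higher, also with any 1 library left out, and none of the 53 lower. Of all genes tested, 0.368% were called higher and 0.562% lower. In the other lists DNAJB11 (0.92) and CALU (0.76), UFD1L (0.80) and VCP (0.80), and SSR2 (0.97) and SSR3 (0.59) had the smallest p, with no call.

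Set against siJMJD6 cells with MG132, KO cells had 7 of the 53 higher and 1 lower, beside 11.1% and 9.69% of all genes tested, and 5 of the 7 sensors and factors were among the higher. DDIT3 averaged 513 ± 46.3 normalised counts in KO cells and 112 ± 23.6 in siJMJD6 cells (SD, n = 2 each; 2.19 ± 0.26, adjusted p = 0.000156). ATF4 (2.13 ± 0.27, 0.000242), TRIB3 (3.80 ± 0.53, 0.000467) and PPP1R15A (1.80 ± 0.28, 0.00105) were higher with any 1 library left out, whereas ATF6 (1.78 ± 0.37, 0.0056) was not called without KO library B (1.66, adjusted p = 0.0593). ERLIN1 (1.68 ± 0.45, 0.0201) and CALU (1.03 ± 0.30, 0.0296) were higher and OS9, a lectin of the degradation pathway, lower (-1.13 ± 0.33, 0.0282). These 3 calls were lost without siJMJD6 library 1, KO library A or KO library B (adjusted p from 0.0508 to 0.225), and that of CALU also without siJMJD6 library 2 (0.95, adjusted p = 0.0735). With no filter all 3 were lost (adjusted p from 0.0586 to 0.0790), and without the variance trend CALU (0.0960) and OS9 (0.0640) were. No translocation gene was called, with SRPRB (-0.73) and SPCS3 (-0.79) at the smallest p.

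For siJMJD6 cells with MG132 against siNT cells with DMSO, 3 of the 53 were higher and 4 lower, shares near the 6.20% and 7.18% of all genes tested. ATF6 was lower with any 1 library left out (-1.97 ± 0.37, adjusted p = 0.0047). ATF4 (-1.41 ± 0.27, 0.00535) and TRIB3 (-2.66 ± 0.53, 0.00673) were lower, but not called without siNT DMSO library 2 (-1.21, adjusted p = 0.0609, and -1.79, 0.0652). ERLIN1 was lower (-1.98 ± 0.45, 0.0134) and lost its call without siNT DMSO library 1 (-1.79, 0.106) or 2 (-2.17, 0.0518) or siJMJD6 library 1 (-1.50, 0.0681). SEC61A1 was higher (1.18 ± 0.27, 0.0123) and lost its call without siNT DMSO library 1 (1.01, 0.109) or siJMJD6 library 1 (1.02, 0.0528). SRPRB (0.92 ± 0.28, 0.0454) and PPP1R15A (0.91 ± 0.28, 0.0488) were higher, SRPRB losing its call without any 1 of the DMSO, siJMJD6 or KO libraries (adjusted p from 0.0517 to 0.188) and PPP1R15A without any 1 library but siJMJD6 library 1 (0.0603 to 0.289). Among other settings, no filter ended the calls of TRIB3 (adjusted p = 0.0661), ERLIN1 (0.0581), SRPRB (0.0949) and PPP1R15A (0.0741), and no variance trend those of ATF4 (0.0512), TRIB3 (0.0551), SEC61A1 (0.0705), SRPRB (0.131) and PPP1R15A (0.111). A fit of these groups alone ended those of SRPRB (0.0683) and PPP1R15A (0.135), quantile normalisation that of SRPRB (0.0604) and a pseudocount of 10 that of PPP1R15A (0.0550). No folding gene was called, with DNAJB11 (0.60) and FKBP14 (-1.02) at the smallest p.

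As a setting, the cytosolic chaperone genes after heat shock did not all follow the ER genes. HSPA1A had 1595, 1981 and 1920.3 normalised counts in siJMJD6 cells after heat shock, against 1408, 1662 and 1689.9 in siNT cells after heat shock and 565, 552 and 564 in basal cells. Its siJMJD6 libraries overlapped the heat-shocked siNT libraries and lay far above basal (siJMJD6 against siNT after heat shock 0.21 ± 0.084 on the log2 scale, adjusted p = 0.0419). HSPA1B had 839.9, 979 and 917 in siJMJD6 cells after heat shock, against 1442, 1572 and 1369 in siNT cells after heat shock and 404, 382 and 424 in basal cells, the siJMJD6 libraries between the other groups (-0.68 ± 0.083 against siNT after heat shock, adjusted p = 2.19e-08). HSP90AA1, of the cytosolic HSP90, had 4159.7, 3725 and 3932 in siJMJD6 cells after heat shock, against 22185, 20544 and 19998 in siNT cells after heat shock and 14041, 15283 and 12336 in basal cells, with the siJMJD6 libraries far below basal (-2.41 ± 0.069 against siNT after heat shock, adjusted p = 6.72e-25). With MG132, HSPA1A, HSPA1B and HSP90AA1 were each lower in both siJMJD6 libraries than in both siNT libraries. HSPA1B had 498.7 and 722 in siJMJD6 cells, against 4228.5 and 2312 in siNT cells. HSP90AA1 had 4040.5 and 3662 in siJMJD6 cells, against 30731 and 26706 in siNT cells. HSPA1A and HSPA1B are nearly identical, and reads can be split between them.

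The genes most like the mean profile of the 10, by Pearson correlation of log2 values over all libraries of a table, were UBE2B (r = 0.969), CACYBP (0.969), FCHO1 (0.968), MCL1 (0.958) and CERS6 (0.957) in the heat shock table (9 libraries, 5134 genes with a mean of at least 50). In the MG132 table they were BTBD2 (0.933), NAA15 (0.905), DNAJC8 (0.885), MED1 (0.884) and TNPO3 (0.875), over 8 libraries and 4563 genes. The points of each correlation share libraries and scaling, and the 2 lists hold no gene in common. UBE2B, a ubiquitin-conjugating enzyme, had 147, 175 and 176 normalised counts in siJMJD6 cells after heat shock, against 239, 237 and 258 in siNT cells after heat shock and 173, 182 and 163 in basal cells, and its siJMJD6 and basal libraries overlapped.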

How the data were processed

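RNA of 17 libraries was converted with a QuantSeq forward kit, per the labels' protocols, which yields 1 tag per transcript near its 3' end, and the submitters' processing notes name FastQC 0.11.2, STAR 2.6.0, HTSeq and the build hg38. The authors deposited normalised counts, treated here as a signal per gene that is not a whole number of reads. The sources used here do not give the annotation, the gene filter, the scaling or the use of strand. Depth is unknown, whole reads could not be recovered, and 7 of the 17 libraries hold small positive values in place of any 0. These are siNT MG132 library 1, siJMJD6 MG132 library 1, KO library B, siNT basal libraries 1 and 3, and siJMJD6 heat shock libraries 1 and 2. No heat-shocked siNT library is among them, and whether this bears on the calls was not tested.

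From these values, log2(normalised count + 1) was fitted with limma 3.58.1 (R 4.3.3; group means, all groups of a table, trended empirical Bayes variance), for genes at 10 or more in at least 2 (MG132) or 3 (heat shock) libraries. P-values were adjusted within each of 9 comparisons by Benjamini-Hochberg, and called means adjusted p under 0.05. A fold change on this scale understates the change of low genes. No test crosses the 2 tables. The 10 genes, the pathway lists and the markers were chosen with earlier results of these data known. Genes named are the 10, in each list up to 4 called genes with the smallest adjusted p (otherwise the 2 with the smallest p), the sensors and main factors, HSPA1A, HSPA1B and HSP90AA1, and the 5 closest to their mean profile in each table. Alternatives were other pseudocounts, no filter, other scalings, no variance trend, the compared groups alone, a block for replicate number and each library left out. Promoters and gene positions come from RefSeq (GRCh38.p14) and GENCODE 29.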

Additional observations from a re-analysis of the deposited data

How the results depend on the processing

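The 8 ER genes lower in siJMJD6 than in siNT cells after heat shock were 8 under every alternative run, those higher with heat shock in siNT cells 6 to 9, and HERPUD1 kept its call in siJMJD6 against siNT cells and in KO against siJMJD6 cells with MG132 throughout. The called count for siJMJD6 with MG132 against siNT with DMSO was 0 with no filter, no variance trend or only these groups in the fit. A fit of only the compared groups gave 2 for KO with MG132 against siNT with DMSO, with 213 of all genes tested called in place of 91. Quantile normalisation gave 2 for siJMJD6 against siNT cells with MG132 (HERPUD1 and HSPA5). With 1 library left out, the counts ran from 0 to 3 for siJMJD6 with MG132 against siNT with DMSO, 1 to 3 for siJMJD6 against siNT cells with MG132, and 1 to 2 for KO against siJMJD6 cells. Of 990 log2 values of the 10 genes recomputed in the MG132 table, 921 kept sign and side of the threshold and 50 changed sign. Of 540 in the heat shock table, 503 kept both and 12 changed sign. None of the values that changed sign was called, and the cause was not tested.

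The signs changed by scaling were PDIA4 in KO against siNT cells with MG132 (-0.012, TMM) and in siJMJD6 with MG132 against siNT with DMSO (0.026, median of ratios), CALR in the same comparison (-0.15, quantile), SDF2L1 in KO against siJMJD6 cells (0.0052, quantile), HSP90B1 (-0.046) and MANF (-0.044) in KO with MG132 against siNT with DMSO (quantile), and, in siJMJD6 after heat shock against basal siNT cells, HSPA5 (-0.0047, TMM), CRELD2 (-0.00075, TMM) and MANF (0.0095, median of ratios, and 0.00014, quantile). The log2 values that changed sign when 1 library was left out had these ranges. For MG132 against DMSO in siNT cells, HSP90B1 -0.33 to 0.27, DNAJB9 -0.15 to 0.51, PDIA4 -0.38 to 0.20, CRELD2 -0.60 to 0.17 and MANF -0.30 to 0.76. For siJMJD6 against siNT cells with MG132, HSP90B1 -1.39 to 0.038, DNAJB9 -0.74 to 1.46, SDF2L1 -0.14 to 0.48, PDIA4 -0.23 to 0.35 and MANF -0.33 to 0.73. For KO against siNT cells with MG132, HSPA5 -0.52 to 0.028, HSP90B1 -0.24 to 0.35, CALR -0.31 to 0.050, DNAJB9 -0.12 to 0.53, SDF2L1 -0.0054 to 0.20, PDIA4 -0.27 to 0.31 and MANF -0.75 to 0.31. For KO against siJMJD6 cells with MG132, CALR -0.023 to 0.25, DNAJB9 -1.25 to 0.95, SDF2L1 -0.39 to 0.24, PDIA4 -0.29 to 0.20 and CRELD2 -0.46 to 0.40. For siJMJD6 with MG132 against siNT with DMSO, HSP90B1 -1.42 to 0.0046, CALR -0.091 to 0.37, DNAJB9 -0.56 to 1.64 and PDIA4 -0.28 to 0.21. For KO with MG132 against siNT with DMSO, HSP90B1 -0.038 to 0.079, PDIA4 -0.21 to 0.054 and MANF -0.30 to 0.32. For siJMJD6 after heat shock against basal siNT cells, HSPA5 -0.0053 to 0.068, PDIA4 -0.13 to 0.019, CRELD2 -0.042 to 0.11 and MANF -0.11 to 0.033.

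Same-numbered libraries deviated together by r = -0.035 to 0.094 over 9 pairs (heat shock) and 0.045 to 0.37 over 6 pairs (MG132, without the KO libraries, which carry letters), and the labels do not say what a number marks. With 2 libraries a group the deviations of library 2 mirror those of library 1, so the 6 MG132 pairs hold only the values 0.0447, 0.318 and 0.368. A block for replicate number gave 1 of the 10 genes called for MG132 against DMSO (HSPA5, adjusted p = 0.0189) and 2 for siJMJD6 against siNT cells with MG132 (with HSPA5, adjusted p = 0.0152), and ended the call of SDF2L1 below basal (-0.21, adjusted p = 0.0502). Over all genes tested, the block gave 40 calls in place of 26 for MG132 against DMSO. For siJMJD6 against siNT cells with MG132 it gave 1792 in place of 1327.

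Calls over all genes tested, the background above, moved with no filter (MG132 against DMSO 6 against 26 as reported, siJMJD6 against siNT with MG132 675 against 1327, KO against siNT 29 against 125), with no variance trend (0, 688 and 48, and 168 against 402 for heat shock) and with only the compared groups (626 for siJMJD6 against siNT with MG132 and 210 for KO against siNT). With 1 library left out they ran from 10 to 32 for MG132 against DMSO, 349 to 1299 for siJMJD6 against siNT with MG132, 43 to 181 for KO against siNT, 653 to 2017 for KO against siJMJD6 (2033 as reported), 425 to 1591 for siJMJD6 with MG132 against siNT with DMSO (1308), 30 to 144 for KO with MG132 against siNT with DMSO (91) and 271 to 428 for heat shock (402), and lay between 3868 and 4699 in the other 2 heat shock comparisons (4557 and 4556). Of 612 counts over the pathway lists, 547 stayed within 1.5 times. With depth unknown and 2 libraries a group, small MG132 differences could not be resolved.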
